A study of Mus musculus with 12 samples.

Results

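The 10 endothelial and vascular growth factor genes described here were Vegfa, Vegfb, Kdr, Flt1, Pecam1, Cdh5, Tek, Tie1, Angpt1 and Angpt2, out of 22947 genes measured in epididymal white adipose tissue (eWAT). They were chosen by symbol, and the deposited transcripts of each gene were summed. All 10 passed the filter on low values and were among the 12775 genes tested. Of the 10 symbols, 9 were found among the gene names of the deposited table. Vegfb was not, because the table places its 4 transcripts in a merged locus named after the neighbouring gene Dnajc4, so it was found through its Ensembl transcript identifiers.

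Vascular endothelial growth factors are secreted proteins that act on receptor tyrosine kinases of endothelial cells, the cells that line blood vessels. Vegfa drives the growth and permeability of vessels through Kdr (VEGFR2), while Flt1 (VEGFR1) binds Vegfa tightly and can act as a decoy, and also binds Vegfb. The angiopoietins act on a separate receptor, Tek (Tie2), with Tie1 as its partner: Angpt1, from perivascular and stromal cells, activates Tek and stabilises vessels, and Angpt2, from endothelial cells, mostly opposes it. In white adipose tissue the capillary bed supplies fatty acids and oxygen to the adipocytes, which are a main source of Vegfa and Vegfb there.

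Male C57BL/6J mice were fed from 5 weeks of age for 16 weeks with a normal diet (ND), a high-fat diet (HFD), the same HFD with 1.5% (w/w) of an ethanol extract of chrysanthemum leaf (CLE), or the HFD with 0.003% (w/w) of the flavonoid luteolin (LU), and were 21 weeks old at sampling. RNA-seq was made from the eWAT of 3 mice per group, 12 libraries in all. The study describes them as representative mice of larger groups, so they were not a random draw. CLE and LU mice both ate the HFD, and both were compared with the same 3 HFD libraries.

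Values are FPKM, fragments scaled to the length of the transcript and to the size of the library. Read counts were not analysed here, and the depth of each library is unknown. Each difference comes from a single limma fit of log2(FPKM + 1) over the 12 libraries. To be called, a gene had to pass both an adjusted p of 0.05 (Benjamini-Hochberg, over all genes tested) and a change of 1.5-fold. Log2 differences on this scale understate the change of genes with low FPKM. Whole tissue was extracted, and in such samples fewer endothelial cells and less RNA per endothelial cell cannot be told apart. The tissue label was checked by adipocyte genes, which summed to 23056 to 44552 FPKM per library. Within groups, any pair of mice had a Pearson's r of 0.978 to 0.992 across genes. An unexplained letter R stands in the labels of 4 libraries, those of ND mice 3 and 4, of CLE mouse 4 and of LU mouse 2. HFD has none, so comparisons with HFD were repeated among the 8 libraries without it and in a fit with the letter as a covariate.

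Both growth factors were low in HFD eWAT. Vegfa (chr17:46016993-46032369, minus strand, GRCm38) was at 249, 274 and 275 FPKM in the ND mice, at 115, 124 and 130.4 in the HFD mice, at 208, 218 and 220.2 in the CLE mice and at 157, 256 and 178 in the LU mice. Every HFD mouse was below every mouse of the other groups, and LU mouse 3 reached the ND range. Vegfb (chr19:6982473-6987651, minus strand) was at 47.1, 47.2 and 45.4 FPKM in ND, at 24.4, 25.1 and 23.0 in HFD, at 46.8, 39.0 and 37.5 in CLE and at 38.5, 40.7 and 35.9 in LU. Again the HFD mice lay below all others without overlap.

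The promoters of both growth factors are shown with that of Kdr, the main receptor of Vegfa. The 3 genes were called higher with both supplements, as was Tie1, whose window is described only. The sequences are those upstream of the RefSeq start (GRCm38.p6, minus strand, 5′ to 3′), without bases that GENCODE places in the gene. Searched on both strands were ACGTG and GCGTG, the core motifs of hypoxia-inducible factors, the ETS-type motifs CCGGAAG and AGGAAG, and TATAAA. Capitals mark matches, all of them to GCGTG, and the Vegfa window shown had none.
Vegfa, chr17:46032378-46032627: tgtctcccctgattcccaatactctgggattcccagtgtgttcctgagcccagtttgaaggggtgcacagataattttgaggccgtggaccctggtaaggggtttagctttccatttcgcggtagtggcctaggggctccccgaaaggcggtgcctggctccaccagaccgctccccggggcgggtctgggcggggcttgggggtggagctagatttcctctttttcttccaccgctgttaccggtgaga
Vegfb, chr19:6987652-6987901: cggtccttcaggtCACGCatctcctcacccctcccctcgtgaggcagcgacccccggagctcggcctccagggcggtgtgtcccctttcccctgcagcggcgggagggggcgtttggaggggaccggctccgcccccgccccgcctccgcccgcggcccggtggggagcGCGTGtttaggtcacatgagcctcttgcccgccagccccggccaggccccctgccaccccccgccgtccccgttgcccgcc
Kdr, chr5:75978459-75978705: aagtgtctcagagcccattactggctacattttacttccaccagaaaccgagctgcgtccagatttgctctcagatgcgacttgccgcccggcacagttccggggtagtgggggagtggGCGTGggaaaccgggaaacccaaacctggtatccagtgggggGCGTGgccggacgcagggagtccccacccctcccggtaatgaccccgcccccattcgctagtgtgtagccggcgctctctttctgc

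GCGTG, or its reverse complement, stood at 2 places in the Vegfb window and at 2 in the Kdr window, and at none in the Vegfa window shown. A second RefSeq window of Vegfa, at chr17:46025164-46025413, held 1 ACGTG and 1 GCGTG, and was the only member window with an ACGTG. It lies wholly within the gene, and only 1 of the 2 Vegfa windows is followed by a transcript. Its matches are therefore not read as promoter motifs. Of 32851 RefSeq promoter windows of 250 bases, 28.2% held GCGTG and 16.6% held ACGTG. The Vegfb window was 76.4% G and C, against a median of 52.4% over all windows. The Flt1 window held AGGAAG at 2 places, a TATAAA at 1 and a GCGTG at 1, and the Tie1 window held 1 AGGAAG. The Tek window held none of the 5 motifs. AGGAAG occurred in 29.5%, TATAAA in 12.4% and CCGGAAG in 6.91% of all windows.

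**Figure D1:**
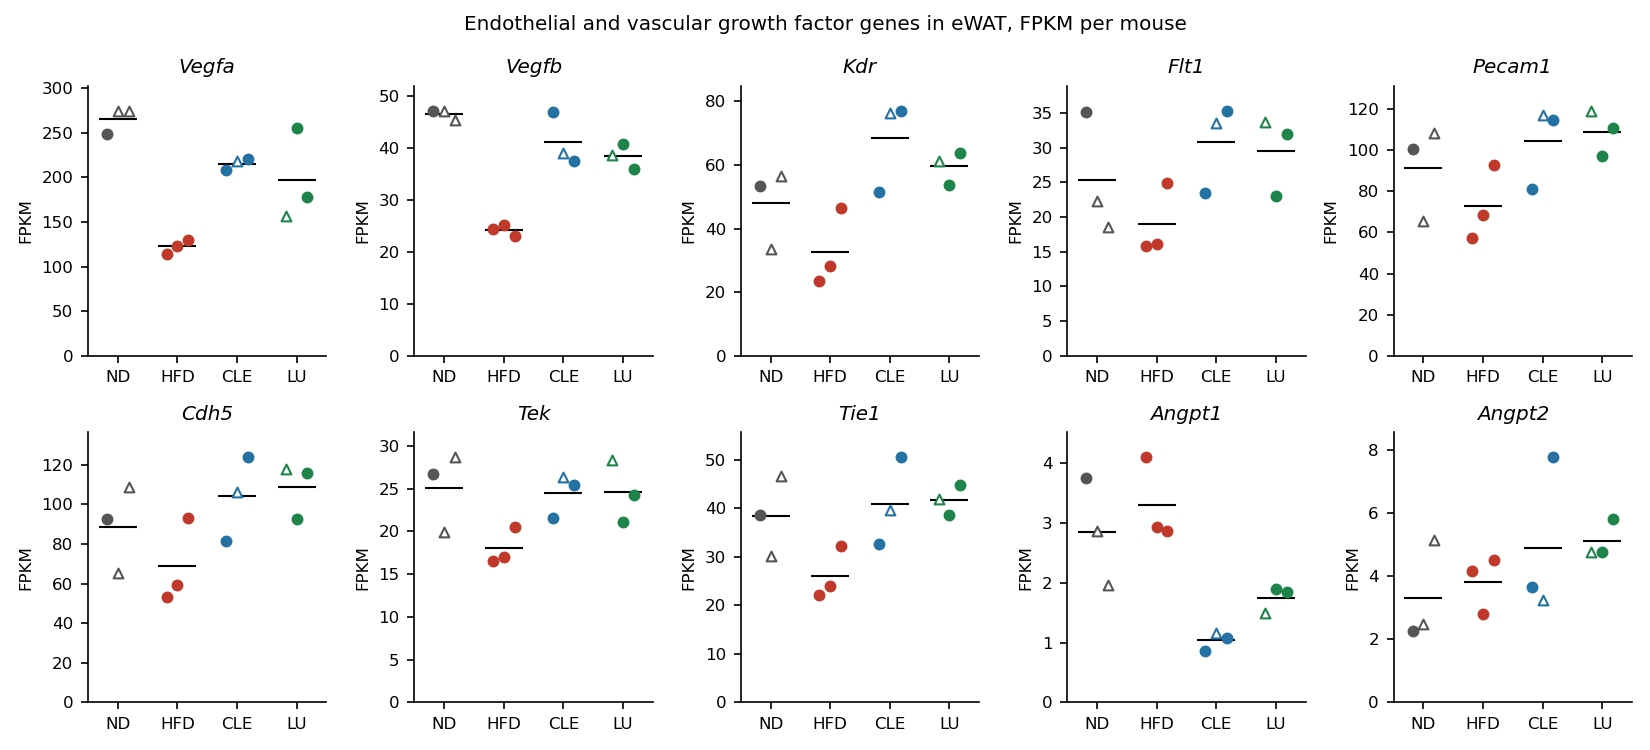
FPKM of the 10 genes in each of the 12 mice by diet group, with linear axes from 0. Points are mice, horizontal lines are group means, and open triangles are libraries with the letter R. Vegfa and Vegfb were lowest in the 3 HFD mice, Angpt1 was lowest in the 3 CLE mice, and the 6 endothelial genes overlapped between ND and HFD.

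The first comparison asked how the high-fat diet alone changed these genes. Vegfa fell from 266 FPKM ± 15 (SD, n = 3) in ND to 123 ± 7.95 in HFD, a log2 difference of -1.11 with an SE of 0.15 (adjusted p = 8.53e-05). Vegfb fell from 46.6 FPKM ± 0.988 to 24.2 ± 1.06, a log2 difference of -0.92 with an SE of 0.09 (adjusted p = 1.26e-05). These 2 of the 10 genes were called, both lower, while 25.6% of all genes tested were called in this comparison 10.8% lower and 14.9% higher. At an adjusted p under 0.05 whatever the fold there were 4, against 50.5% of all genes. Vegfa and Vegfb were also the only members whose groups did not overlap, as was so for 59.5% of all genes tested. The share of members called was thus near the background.

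The receptors and junction genes of endothelial cells had lower means in HFD but did not meet both criteria. Tek (chr4:94739289-94874976, plus strand) was at 26.7, 19.9 and 28.7 FPKM in ND and at 16.5, 17 and 20.5 in HFD. Its fold change of 0.733 (adjusted p = 0.0272) was short of the fold threshold, as was that of Tie1 (0.688, adjusted p = 0.0327). Tie1 (chr4:118471191-118490061, minus strand) was at 38.6, 30.2 and 46.7 FPKM in ND and at 22.2, 24.0 and 32.2 in HFD. In both genes only HFD mouse 18 exceeded ND mouse 3, the lowest ND mouse.

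Kdr (chr5:75932827-75978458, minus strand), the main signalling receptor for Vegfa, was at 53.4, 33.7 and 56.7 FPKM in ND and at 23.7, 28.2 and 46.4 in HFD, with a log2 difference of -0.56 (SE 0.25, adjusted p = 0.0881). For Flt1, Pecam1 and Cdh5 the log2 differences were -0.38, -0.32 and -0.38, with adjusted p-values between 0.202 and 0.239. The 95% confidence interval of Pecam1 ran from -0.80 to 0.16, so neither no change nor a fall past 1.5-fold was outside it. Angpt1 and Angpt2 differed by 0.17 and 0.21, within the spread between mice. Without HFD mouse 18, and likewise without ND mouse 3, 5 genes were called lower in place of 2. Kdr and Tie1 were added in both cases, with Cdh5 (-0.62, adjusted p = 0.0432) in the first and Tek (-0.60, adjusted p = 0.00553) in the second.

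**Figure D2:**
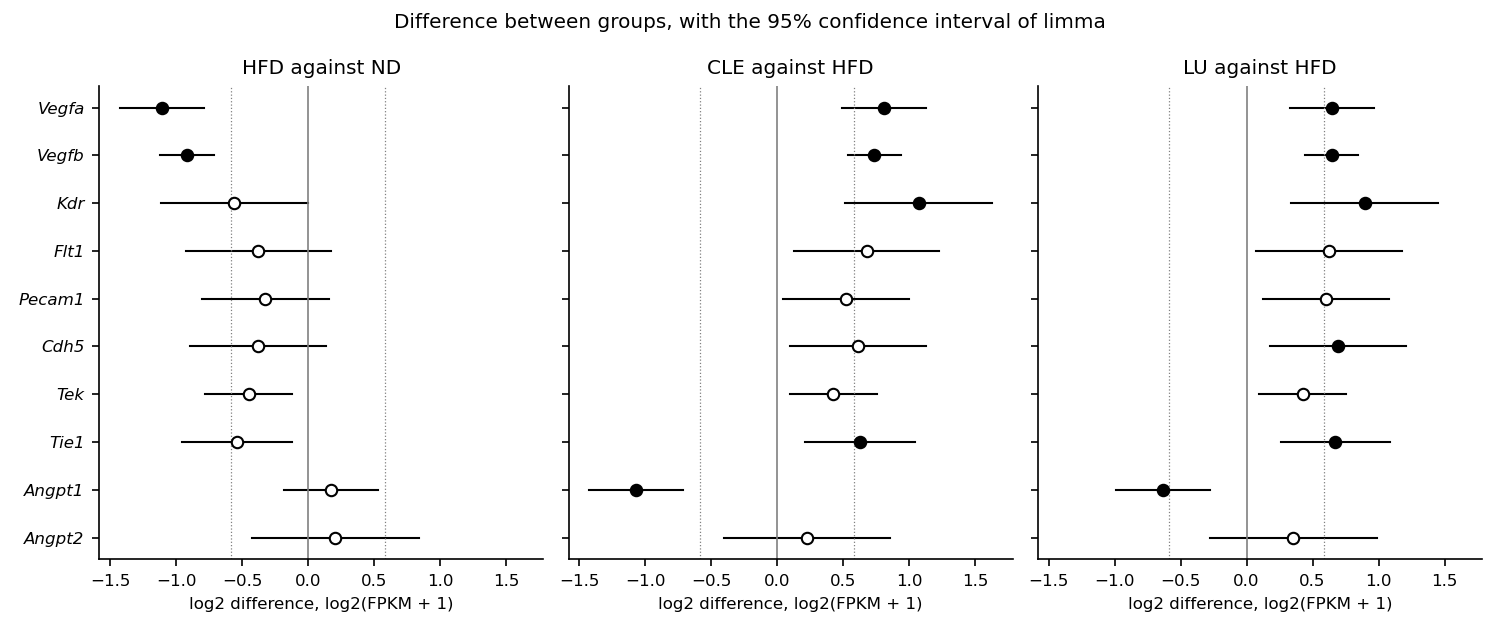
Log2 differences between groups on the log2(FPKM + 1) scale for the 10 genes, in 3 comparisons, with 95% confidence intervals from limma. Filled points were called, open points were not, and dotted lines mark 1.5-fold. HFD against ND called Vegfa and Vegfb, CLE against HFD called 5 genes and LU against HFD called 6.

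The second comparison asked what CLE changed on top of the HFD. CLE mice had 4 of the 10 genes called higher and 1 called lower, while 16.5% of all genes tested were called, 6.33% higher and 10.1% lower. Vegfa rose 1.75-fold, to 215 FPKM ± 6.61 (log2 difference 0.81, SE 0.15, adjusted p = 0.0015), and Vegfb 1.67-fold, to 41.1 FPKM ± 4.98 (0.74, SE 0.09, adjusted p = 0.000148). Kdr was at 51.6, 76.4 and 77.1 FPKM in CLE, all above the HFD mice, and rose 2.1-fold (1.07, SE 0.25, adjusted p = 0.00742). Tie1 was at 32.7, 39.6 and 50.6 FPKM, also above all HFD mice, and rose 1.54-fold (0.63, SE 0.19, adjusted p = 0.0248). The lowest CLE mouse exceeded HFD mouse 18 by less than 1 FPKM in Tie1.

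Angpt1 (chr15:42424723-42676977, minus strand) moved the other way. It was at 4.10, 2.93 and 2.86 FPKM in HFD and at 0.864, 1.16 and 1.08 in CLE, a fall of 1.07 on the log2 scale (SE 0.16, adjusted p = 0.000512). The groups did not overlap. CLE was also lower than ND, where the values were 3.75, 2.86 and 1.95 FPKM (log2 difference -0.90, SE 0.16, adjusted p = 0.0151). Angpt1 was the 1 member called between CLE and ND, where 2.91% of all genes tested were called, and the call was lost without ND mouse 2 (adjusted p = 0.0505). It was also lost in 4 other alternatives: with only the groups compared, with known and class = transcripts only, with the highest transcript, and in the fit with the replicate block (adjusted p up to 0.421). The assembled transcripts of Angpt1 took erratic shares of its FPKM from mouse to mouse, so only the sum over its 7 transcripts is described.

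For Flt1, Pecam1, Cdh5 and Tek the fitted fold changes between CLE and HFD were 1.34 to 1.6, and these genes were not called. Tek had an adjusted p of 0.0488 with a fold change of 1.34, and its groups did not overlap. Pecam1, an adhesion molecule of endothelial junctions, was at 57.2, 68.4 and 92.8 FPKM in HFD and at 81.2, 117 and 115 in CLE (chr11:106654217-106750628, minus strand). Cdh5, the cadherin of these junctions, was at 53.3, 59.5 and 93.4 FPKM in HFD and at 81.7, 106 and 124 in CLE (chr8:104101625-104144511, plus strand). In both, HFD mouse 18 was above CLE mouse 2 and below the other CLE mice. Without HFD mouse 18, or without CLE mouse 2, 8 genes were called in place of 5, with Flt1, Pecam1 and Cdh5 added. The call of Tie1 was lost without HFD mouse 12 or 15 or without CLE mouse 4 or 11 (adjusted p = 0.0583 to 0.0954). Of 26 alternatives Tie1 lost its call in 8, which also took in array weights, the libraries without the letter R, known and class = transcripts only, and the highest transcript (adjusted p up to 0.108).

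The third comparison asked the same of luteolin, at its own dose. LU mice had 5 of the 10 genes called higher and 1 called lower than HFD, while 12.4% of all genes tested were called, 4.81% higher and 7.64% lower. Vegfa rose 1.57-fold (log2 difference 0.65, SE 0.15, adjusted p = 0.00765) and Vegfb 1.56-fold (0.64, SE 0.09, adjusted p = 0.000655). The Vegfa call rested partly on LU mouse 3, since the difference without it was 0.44, short of the fold threshold. Array weights and the highest transcript also ended it. Kdr was at 61.2, 53.6 and 63.9 FPKM in LU and rose 1.86-fold (0.90, SE 0.25, adjusted p = 0.023). Tie1 was at 41.9, 38.6 and 44.9 FPKM and rose 1.59-fold (0.67, SE 0.19, adjusted p = 0.0222).

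Cdh5, at 118, 92.8 and 116 FPKM in LU, was called at 1.61-fold (adjusted p = 0.049), although LU mouse 3 lay just below HFD mouse 18. Angpt1 was at 1.50, 1.89 and 1.85 FPKM in LU, below every HFD mouse (log2 difference -0.64, SE 0.16, adjusted p = 0.0143). Pecam1, at 119, 97.2 and 111 FPKM, was above every HFD mouse with an adjusted p of 0.0619. Flt1 (1.54-fold, adjusted p = 0.087), Tek (1.34-fold, adjusted p = 0.0566) and Angpt2 (1.28-fold, adjusted p = 0.393) were not called. Of the 10 genes, 8 had LU and HFD groups that did not overlap, beside 47.6% of all genes tested, and 6 had CLE and HFD groups that did not, beside 50.6%.

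Several LU calls changed with single libraries and with the processing. Leaving out HFD mouse 12 or LU mouse 2 left 2 calls, and leaving out HFD mouse 15 or LU mouse 8 left 3, with Kdr, Cdh5 and Tie1 lost in all 4 cases (adjusted p up to 0.175). Cdh5 also lost its call without ND mouse 2, CLE mouse 4 or LU mouse 3, and Angpt1 without HFD mouse 12 or LU mouse 2. Cdh5 lost its call in 14 of 26 alternatives, among them a pseudocount of 0.1, no filter, equal totals, and known or highest transcripts only. Kdr lost it in 6, among them no filter, and Tie1 in 7, among them known or highest transcripts only. With the letter R as a covariate, LU against HFD gave 4 calls, without Cdh5 (adjusted p = 0.0809) and Angpt1 (log2 difference -0.57, short of the fold threshold). Without HFD mouse 18, 8 genes were called. In the 8 libraries without the letter R, Vegfa, Vegfb, Kdr and Angpt1 were called between CLE and HFD, and Vegfa and Vegfb between LU and HFD. Vegfb kept its call in all 26 alternatives in each of these 3 comparisons.

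Compared with ND, neither supplement left a member called higher, while 2.06% of all genes tested were called higher in CLE and 4.97% in LU, and 0.853% and 1.62% lower. The groups did not overlap in 2 members for CLE and in 2 for LU, against 24.7% and 30.1% of all genes tested. LU against ND called 0 of the 10 genes with limma, against 6.59% of all genes tested, and 3 members had an unadjusted p under 0.05, as did 27.7% of all genes tested. They were Vegfa (log2 difference -0.46, adjusted p = 0.0599), Vegfb (-0.27, adjusted p = 0.0768) and Angpt1 (-0.46, adjusted p = 0.0859). Without LU mouse 3, Vegfa was called lower than ND (-0.67, adjusted p = 0.00439), and without ND mouse 4, Angpt1 was (-0.64, adjusted p = 0.019). The Vegfa mean in LU was 74.0% of the ND mean and in CLE 81.0%, while in HFD it was 46.2%. For Vegfb these shares were 82.4%, 88.2% and 51.9%. The Kdr mean was 143% of the ND mean in CLE and 124% in LU, which did not pass the test (adjusted p = 0.251 and 0.425).

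CLE and luteolin, an extract and a flavonoid given at different doses, were also set side by side. No member was called between CLE and LU with limma, where 0.00783% of all genes tested were called, and 1 member had an unadjusted p under 0.05, as did 5.26% of all genes tested. That was Angpt1, at 1.04 FPKM ± 0.154 in CLE and 1.75 ± 0.213 in LU (log2 difference -0.43, 95% confidence interval -0.79 to -0.08, adjusted p = 0.891). The groups did not overlap in Angpt1 alone, while they did not in 9.03% of all genes tested. The 95% confidence interval was -0.38 to 0.73 for Kdr and -0.16 to 0.48 for Vegfa, so differences of 1.5-fold in Kdr were inside it.

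Across the 10 genes the median log2 difference was -0.41 for HFD against ND, 0.62 for CLE against HFD and 0.63 for LU against HFD. The medians of all genes tested were -0.02, 0.01 and 0.03. Against ND the members' medians were 0.14 for CLE and 0.19 for LU.

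The 6 genes of endothelial cells themselves, Kdr, Flt1, Pecam1, Cdh5, Tek and Tie1, varied together from mouse to mouse within groups. HFD mouse 18 was above its group mean in 6 of the 6 genes, by a median of 0.39 on the log2 scale, and HFD mice 12 and 15 were below it in all 6. ND mouse 3 was below its group mean in all 6 (median -0.36), as were CLE mouse 2 (-0.33) and LU mouse 3 (-0.18). Over the 12 libraries, Pearson's r of log2(FPKM + 1) for the 15 pairs of these genes ranged from 0.72 to 0.979 with a median of 0.898. After group means were removed the range was 0.469 to 0.978, with a median of 0.893. These values describe 12 libraries that share depth and composition per library, and carry no test.

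Levels were therefore also set relative to Pecam1 in the same library. Cdh5 stood at 0.87 to 1.08 times the FPKM of Pecam1 in all 12 libraries, with every pair of groups overlapping. The ratio of Kdr to Pecam1 was 0.532, 0.512 and 0.522 in ND, 0.414, 0.412 and 0.50 in HFD, 0.636, 0.652 and 0.672 in CLE, and 0.513, 0.552 and 0.577 in LU. HFD was below all other groups and CLE above them, with no overlap of either with any other group. CLE against HFD differed by 0.57 on the log2 scale (two-sided exact permutation p = 0.1, the smallest that 3 against 3 mice allow, adjusted p = 0.429 over 30 differences).

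Of the 30 differences over 5 ratios and 6 comparisons, 7 had groups that did not overlap, and 5 of these were of Kdr. Of 12706 genes, the share whose ratio to Pecam1 did not overlap was 27.3% for HFD against ND, 36.9% for CLE against HFD, 51.6% for LU against HFD, 7.5% for CLE against ND, 19.5% for LU against ND and 3.64% for CLE against LU. The other 2 were Flt1 in CLE against HFD (0.290, 0.287 and 0.308 against 0.277, 0.236 and 0.269) and Tek in LU against ND (log2 difference -0.31). The count was 11 without ND mouse 4, CLE mouse 4 or LU mouse 2.

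**Figure D3:**
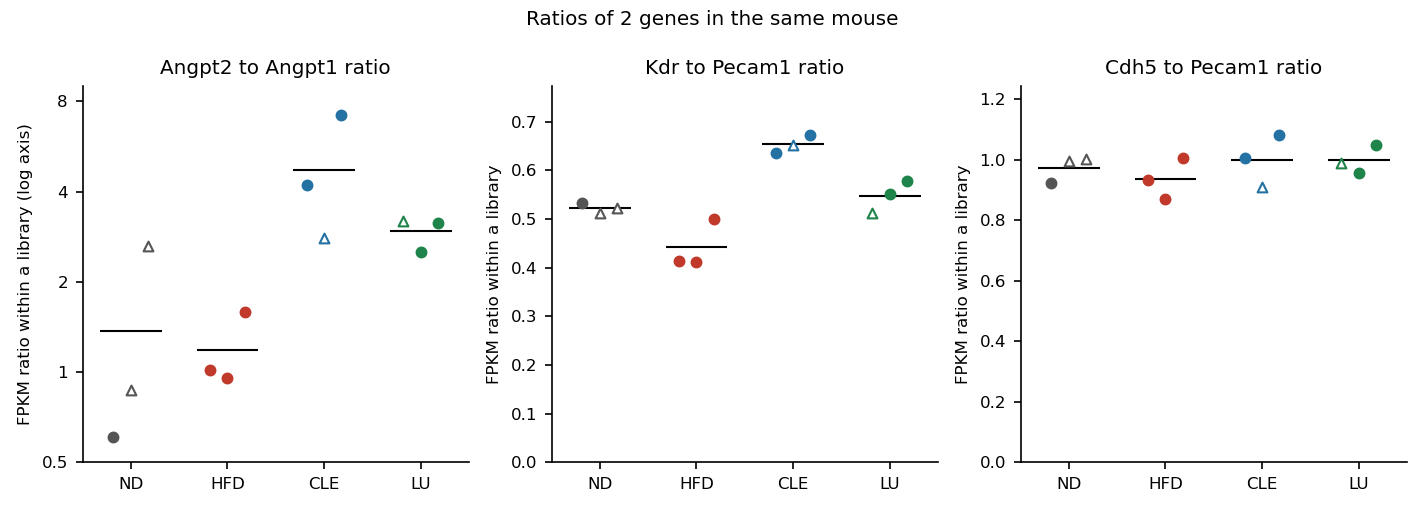
Ratios of FPKM within each of the 12 libraries for Angpt2 to Angpt1 (log axis), Kdr to Pecam1 and Cdh5 to Pecam1 (linear axes from 0). Points are mice, lines are group means, and open triangles are libraries with the letter R. Kdr to Pecam1 was 0.636 to 0.672 in CLE and 0.412 to 0.50 in HFD, while Cdh5 to Pecam1 stayed between 0.87 and 1.08.

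Angpt2 (chr8:18690263-18741562, minus strand) was at 2.28, 2.50 and 5.16 FPKM in ND, at 4.18, 2.80 and 4.53 in HFD, at 3.65, 3.24 and 7.79 in CLE and at 4.79, 4.76 and 5.81 in LU. It passed no test in any comparison. Angpt2 lies on the opposite strand within Mcph1, and whether reads were counted by strand is not given in the sources used here. The ratio of Angpt2 to Angpt1, the antagonist to the agonist of Tek, was 1.02, 0.955 and 1.58 in HFD. In CLE the ratio was 4.22, 2.80 and 7.18, and in LU 3.19, 2.52 and 3.14, all above the HFD mice. Its denominator Angpt1 was at 0.864, 1.16 and 1.08 FPKM in CLE, near the filter of 1 FPKM. Taken singly, 50.6% of all genes tested did not overlap between CLE and HFD and 47.6% between LU and HFD. The share over ratios of 2 genes was not computed. In ND the ratio was 0.608, 0.874 and 2.64.

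The mean log2 ratio was 1.93 higher in CLE than in HFD and 1.34 higher in LU than in HFD. Both had a two-sided exact permutation p of 0.1, the smallest possible, and an adjusted p of 0.2 over 6 comparisons. CLE was also above ND without overlap (1.97), while LU and ND overlapped because of ND mouse 4. With HFD against ND the difference was 0.05. Between CLE and HFD, Angpt2 alone differed by 0.22 on the log2(FPKM + 1) scale and Angpt1 alone by -1.07. In the 2 ND libraries with the letter R the ratio was 0.874 and 2.64, and in the ND library without it 0.608.

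Transcript values were available for both growth factors and for Flt1. Vegfb gave 2 main transcripts, of 188 and 207 codons, which encode the heparin-binding and the freely diffusible form of the protein and held 49.2% and 47.1% of its FPKM. The transcript of 188 codons was at 24.8, 26.3 and 24.7 FPKM in ND, 11.6, 12.7 and 10.2 in HFD, 20.5, 20.2 and 16.8 in CLE and 17.6, 19.4 and 17.2 in LU. The transcript of 207 codons was at 20.3, 19.5 and 18.9 in ND, 11.9, 11.3 and 11.4 in HFD, 24.9, 17.2 and 19.9 in CLE and 19.96, 20.3 and 16.8 in LU. Both were lowest in the 3 HFD mice. The share of the transcript of 188 codons was 52.7% to 55.7% of Vegfb in ND and 44.3% to 50.4% in HFD. It was 43.7% to 51.9% in CLE and 45.6% to 48.0% in LU. How often such shares differ without overlap over other transcripts was not computed.

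Flt1 (chr5:147561604-147726011, minus strand) gave a transcript of 1333 codons, the membrane receptor, and one of 688 codons, the secreted decoy that lacks the membrane and kinase parts. The receptor transcript was at 21.9, 14.6 and 11.3 FPKM in ND, 9.84, 8.92 and 12.2 in HFD, 15.2, 22.2 and 23.8 in CLE and 20.7, 16.2 and 20.6 in LU. The receptor transcript was higher in every CLE and LU mouse than in every HFD mouse. Flt1 as a gene overlapped and was not called in either comparison (adjusted p = 0.0566 and 0.087 with limma). Of all genes tested, each summed over its transcripts, 50.6% did not overlap between CLE and HFD and 47.6% between LU and HFD. The share over single transcripts was not computed. The secreted transcript was at 10.6, 6.78 and 5.54 FPKM in ND, 4.37, 4.43 and 7.50 in HFD, 6.13, 7.80 and 9.44 in CLE and 7.98, 5.20 and 8.06 in LU, and its groups overlapped. The secreted transcript's share of Flt1 was 27.4% to 30% in HFD and 29.9% to 30.4% in ND, against 23.2% to 26.7% in CLE and 22.5% to 25.3% in LU. These shares are estimates of the authors' assembly and were not tested. Vegfa was spread over 32 transcripts, of which the most abundant held 13.3%, and 5 transcripts with a retained intron held 27.5%, so its forms are not compared.

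**Figure D4:**
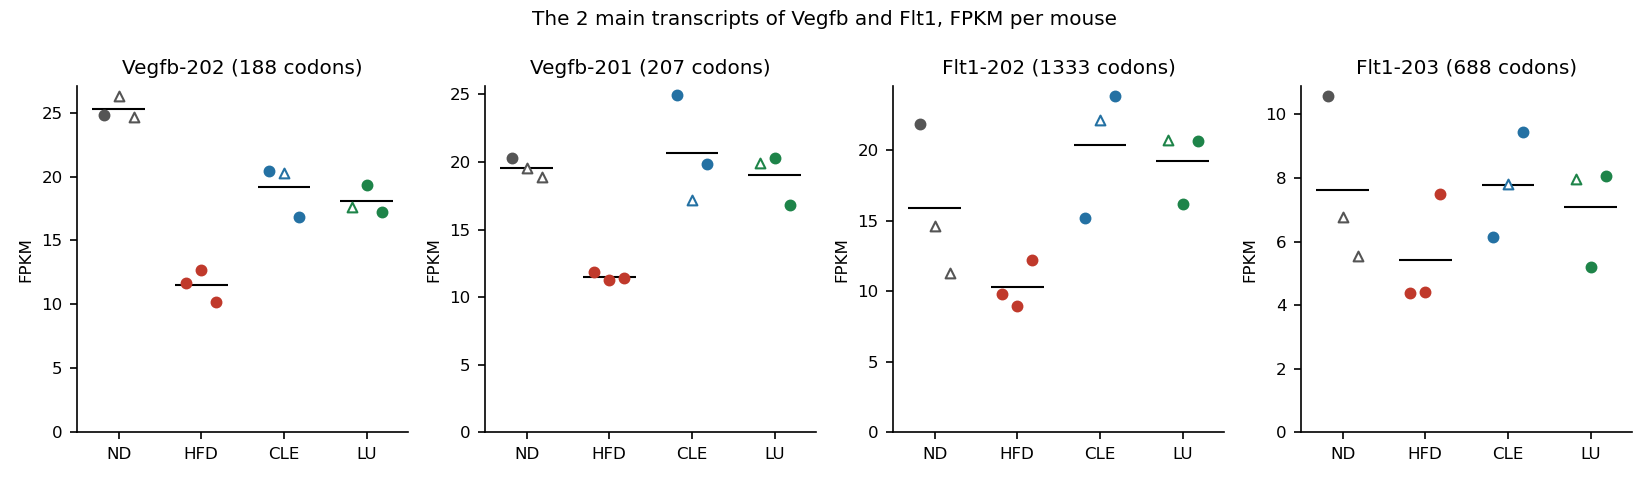
FPKM of the 2 main transcripts of Vegfb and of Flt1 in each mouse, by diet group, with linear axes from 0. Points are mice, lines are group means, and open triangles are libraries with the letter R. Both Vegfb transcripts were lowest in the 3 HFD mice, and the Flt1 transcript of 1333 codons was at 8.92 to 12.2 FPKM in HFD and 15.2 to 23.8 in CLE.

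A list of 44 other genes of endothelial identity, all tested, is given beside the members. HFD against ND called 26 of them lower and 1 higher, with a median log2 difference of -0.65. Both CLE and LU against HFD called 33 higher and 0 lower, with medians of 0.72 and 0.75. Of all genes tested, 10.8% were called lower and 14.9% higher with the HFD. Against HFD, 6.33% of all genes tested were called higher with CLE and 4.81% with LU. Gpihbp1, which holds lipoprotein lipase on the capillary wall, fell from 165 to 73.4 FPKM with the HFD (log2 difference -1.15) and was at 162 in CLE (1.11 above HFD) and 168 in LU (1.19). Cldn5, a tight junction protein, fell by 1.14 on the log2 scale with the HFD and rose by 1.06 with CLE and 1.03 with LU. Egfl7, a matrix protein secreted by endothelial cells, fell by 1.11 and rose by 0.96 and 0.87. Eng, a co-receptor for TGF-beta family ligands, fell by 0.74, with overlapping groups, and rose by 1.03 and 0.87. Calcrl, the receptor of adrenomedullin, was the 1 gene called higher in HFD (0.67).

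Against ND, limma called 0 of the 44 genes in CLE and 0 in LU at an adjusted p under 0.05 and 1.5-fold. Of all genes tested, 2.91% and 6.59% were called there. The summed FPKM of the list was 1412 to 2062 in ND, 955 to 1304 in HFD, 1542 to 2125 in CLE and 1729 to 1955 in LU. The count called in LU was 19 without HFD mouse 12, 20 without HFD mouse 15 and 21 without LU mouse 2. In CLE it was 22 without HFD mouse 12 or CLE mouse 11. With the HFD against ND, the count was 19 without HFD mouse 12 or ND mouse 4. In the 8 libraries without the letter R, 22 were lower with the HFD, and 23 and 22 were higher with CLE and LU.

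**Figure D5:**
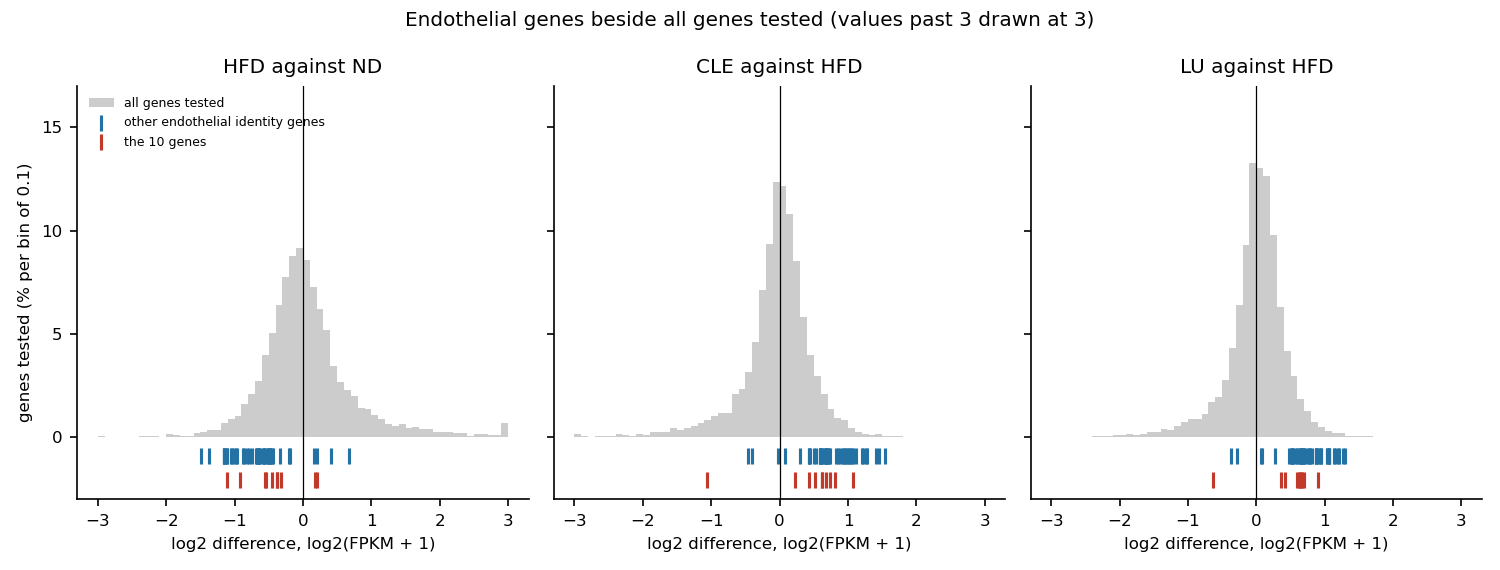
Log2 differences on the log2(FPKM + 1) scale in 3 comparisons. Grey bars are all 12775 genes tested, in percent per bin of 0.1, with values past 3 drawn at 3, and marks under them are the 44 other endothelial identity genes (blue) and the 10 genes (red). The blue marks had medians of -0.65, 0.72 and 0.75, against -0.02, 0.01 and 0.03 for all genes.

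Other genes of the VEGF and angiopoietin pathways did not move as a block. Of 34 tested, 11 were called higher and 3 lower with the HFD, 5 higher and 10 lower with CLE, and 1 higher and 8 lower with LU against HFD. The list's medians were 0.25, -0.06 and 0.03. In these comparisons 41.2%, 44.1% and 26.5% of the list were called, against 25.6%, 16.5% and 12.4% of all genes tested. Higher with the HFD were Svep1 (log2 difference 1.91), a matrix ligand of Tie1, Plxnd1 (0.98) and Sema3c (1.30), a semaphorin receptor and ligand, and Dok2 (2.24), an adaptor downstream of Tek that blood cells also express. All 4 were lower with CLE, by 1.02, 0.62, 0.76 and 1.39 on the log2 scale, and Sema3c and Dok2 were lower with LU. Lower with the HFD were Plcg1 (-0.59), which signals downstream of Kdr, Nos3 (-0.81), the endothelial nitric oxide synthase, and Grb14 (-0.60). Nos3 was higher with CLE (0.60), as were Ptprb (0.74), the phosphatase that restrains Tek, Thbs1 (1.04), an inhibitor of angiogenesis, and Sema3f (0.70). Ptprb was the 1 gene higher with LU (0.70).

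Among arterial, venous and tip cell genes, 23 of which were tested, 5 were higher and 4 lower with the HFD, and 6 were higher and 2 lower with each supplement. The called shares were 39.1% with the HFD and 34.8% with each supplement. Over all genes tested they were 25.6% with the HFD, 16.5% with CLE and 12.4% with LU. Ephb4 and Nr2f2 fell by 0.85 and 0.98 on the log2 scale with the HFD. They rose by 1.01 and 0.69 with CLE and by 0.87 and 0.64 with LU. Gja4 was at 2.24 to 4.55 FPKM in HFD, 4.73 to 8.13 in ND, 6.44 to 6.88 in CLE and 5.84 to 7.79 in LU. A difference between venous and arterial genes was not tested. Other genes of the list were higher with the HFD. Col4a2 was at 276 to 321 FPKM in HFD and 136 to 200 in ND. Vcam1 was at 15.8 to 16.6 FPKM in HFD and 7.99 to 12.7 in ND, and Ackr1 at 2.53 to 3.34 and 1.18 to 2.01. Selp and Aplnr overlapped between ND and HFD. Apln, the apelin ligand of tip cells, rose by 1.22 with CLE and 1.32 with LU. Cxcr4, also a leukocyte receptor, rose by 1.77 with the HFD and fell by 1.54 with CLE and 1.00 with LU. Of 5 lymphatic genes tested, the receptor Flt4 was higher with CLE (0.61) and Pdpn lower (-0.68), and Pdpn was higher with the HFD (0.73).

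Mural cells, the pericytes and smooth muscle cells around vessels, gave 14 genes tested, with 5 lower and 1 higher with the HFD, and 4 higher and none lower with either supplement in the limma fit. The called shares were 42.9% with the HFD and 28.6% with each supplement. Over all genes tested they were 25.6% with the HFD, 16.5% with CLE and 12.4% with LU. Acta2, the smooth muscle actin, rose by 0.88 with CLE and 0.96 with LU, and the pericyte genes Abcc9, Kcnj8 and Higd1b rose by 0.72 to 0.90 with CLE and 0.75 to 0.99 with LU. With the HFD, Mcam and Higd1b were lower in every mouse than in ND. Mcam was at 170 to 207 FPKM in HFD and 289 to 297 in ND, and Higd1b at 3.17 to 5.77 and 7.34 to 9.10. Pdgfrb, the pericyte receptor, went the other way and was higher with the HFD (0.62). Of 24 genes of the hypoxia response, to which Vegfa is known to belong, 2 were higher and 4 lower with the HFD, 3 higher and 1 lower with CLE, and 1 higher and 1 lower with LU. Ndrg1 fell by 0.97 with the HFD and rose by 1.13 with CLE and 1.09 with LU. Bnip3 was also lower, at 302 to 321 FPKM in HFD and 516 to 593 in ND. Others went the other way. Pfkfb4 was at 8.50 to 11.1 FPKM in HFD, 2.67 to 4.50 in ND and 3.74 to 5.08 in CLE. Vldlr was at 38.4 to 42.9 FPKM in HFD and 21.5 to 29.3 in ND. The medians of the hypoxia list were -0.03, 0.10 and 0.04. Its called shares, 25%, 16.7% and 8.33%, were near or below the 25.6%, 16.5% and 12.4% of all genes tested.

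Genes of other cell types moved with the same comparisons. All 20 macrophage genes were tested, and 17 were higher with the HFD (median log2 difference 2.47), 17 lower with CLE (-1.73) and 17 lower with LU (-1.35). Their summed FPKM was 4091 to 5028 in ND, 8111 to 8842 in HFD, 4479 to 5296 in CLE and 4777 to 5482 in LU. Lpl, which is also on the adipocyte list, made up most of these sums in ND, CLE and LU. It was at 3517 to 4237 FPKM in ND, 3811 to 4042 in HFD, 3349 to 4349 in CLE and 3238 to 3665 in LU. The sums therefore understate the change of the other macrophage genes. Against ND, 11 of the 20 genes were called higher in CLE and 15 in LU, beside 2.06% and 4.97% of all genes tested. Of 18 adipocyte genes, 11 were lower and 3 higher with the HFD, 11 higher and 2 lower with CLE, and 6 higher and 2 lower with LU. Their summed FPKM was 42408 to 44552 in ND, 23056 to 25788 in HFD, 33572 to 38727 in CLE and 32210 to 37657 in LU. The called shares were 85% in each comparison for macrophage genes and 77.8%, 72.2% and 44.4% for adipocyte genes. Of all genes tested, 25.6%, 16.5% and 12.4% were called. The part of the macrophage and adipocyte shifts in the values of the endothelial and growth factor genes was not tested. Adipose progenitor genes had medians of 0.33, -0.21 and -0.14 over 12 genes, and 25%, 16.7% and 16.7% of them were called. Of 9 mesothelial genes, 6 (66.7%) were lower with the HFD and 1 (11.1%) was higher with each supplement. Genes of liver, muscle, epididymis and keratinised epithelium summed to 2.04 to 60.9 FPKM per library. The highest sums were in CLE mouse 11 (60.9) and HFD mouse 12 (41.5), followed by ND mouse 2 (32.8) and CLE mouse 2 (26.5). Their part in the endothelial values of these mice was not tested.

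The genes whose pattern over the 12 libraries was most like each member were listed by Pearson's r of log2(FPKM + 1). Pecam1 and Cdh5 were each other's closest gene (r = 0.979). For Kdr these were Uaca, Cdh13 and Adgrf5 (r = 0.984 to 0.973), for Tie1 Scarf1, Ushbp1 and Mmrn2 (0.984 to 0.979), and for Tek Ceacam1, Pkn3 and Ptprb (0.967 to 0.963). Flt1 was closest to Egfl8, Ednrb and Clic5 (0.923 to 0.903). Pear1 and Sema7a followed for Pecam1, and Afap1l1 and Smtn for Cdh5.

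The ligands had other neighbours. Vegfb was closest to Tmprss5, Car3 and Slc22a3 (r = 0.993 to 0.989), of which Car3 is an abundant adipocyte enzyme, at a mean of 7847 FPKM. Vegfa was closest to Mrps15 and Ndufs7, both mitochondrial, and A530053G22Rik (0.9753 to 0.9717). Angpt1 was closest to Rgs2, Rdh13 and Rab14 (0.942 to 0.887), and Angpt2 to Sipa1, Prnd and Yif1b (0.932 to 0.905). These are descriptions over 12 libraries of 4 groups, chosen as the highest of 12775 genes.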

How the data were processed

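Epididymal adipose RNA from 3 mice in each of the 4 groups gave 12 libraries. The authors deposited FPKM per transcript for 152210 known and assembled transcripts, and the labels' processing notes name CASAVA 1.8.2, Bowtie2 2.2.3, TopHat2 2.0.12 and Cufflinks 2.2.1. Of 15 FPKM columns, 3 matched no sample and were not used. A column named MD4 was taken for ND mouse 4, an inference from its number and letter R, since no other sample matches it. Columns that mark transcripts called between groups by the authors were not used. Transcripts were joined to GENCODE M21, where 77000 of 78786 known ones were found, 87.6% with the same ends, and summed per gene. Only rows with an Ensembl transcript, plain or of class = or j, were kept, and the others, 65.8% to 92.9% of each column's total, were left out. FPKM carry no depth, so no counting interval is given.

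Under R 4.3.3, limma 3.58.1 was fitted to log2(FPKM + 1) for genes at 1 FPKM or more in at least 3 libraries, with moderation without trend. The method was tested on simulated data. Ratios had exact permutation tests. Python 3.11.15, pandas 2.3.3, numpy 2.4.6 and matplotlib 3.10.9 were used. The members and gene lists were chosen with earlier results of these data known, and p-values were adjusted over all genes tested. Named list genes were mostly drawn from the called ones with the highest mean FPKM, at most 4 per direction and comparison. Not all genes that this rule gives are named. Some list genes are given by FPKM alone, whether called or not. Alternatives changed the pseudocount, filter, scaling, samples, covariates and transcripts summed.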

Additional observations from a re-analysis of the deposited data

How the results depend on the processing

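The calls of HFD against ND numbered 4 at the adjusted p alone and 1 with the transcript of the highest mean, and 2 to 5 when 1 library was left out. LU against HFD gave 2 calls without the libraries with the letter R, 3 with the highest transcript, and 2 to 8 with 1 library left out, and CLE against HFD gave 4 to 8. CLE against ND gave 0 calls with only the groups compared and with known and class = transcripts only. The highest transcript and the fit with the replicate block also gave 0. A filter at a mean of at least 5 FPKM removes Angpt1 (mean 2.23 FPKM) before the test, so its 0 calls say nothing of that gene. With 1 library left out CLE against ND gave 0 to 1 calls. LU against ND gave 0 to 1. Angpt1 in LU against HFD reversed to 0.18 on the log2 scale with its highest transcript, and Tek to Pecam1 in LU against ND reversed to 0.084. The cause was not tested.

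The members' median was -0.11 for CLE against ND and -0.087 for LU against ND without the libraries with the letter R, and -0.31 for CLE against LU in the fit with the replicate block. With 1 library left out the median was -0.05 to 0.30 for CLE against ND, 0.02 to 0.27 for LU against ND and -0.11 to 0.09 for CLE against LU. It was -0.60 to -0.31 for HFD against ND, 0.47 to 0.75 for CLE against HFD and 0.52 to 0.74 for LU against HFD.

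The log2 ratio of Angpt2 to Angpt1 with known and class = transcripts only was 3.83 higher in CLE and 1.72 in LU than in HFD. It was 3.52 higher in CLE than in ND and 2.11 higher in CLE than in LU. In that setting Angpt1 has 1 transcript, at 0.603, 0.258 and 0.00456 FPKM in CLE mice 2, 4 and 11. The CLE values there rest on a denominator near 0 in mouse 11 and are not usable as sizes. With a pseudocount of 1 the ratio was 1.29 higher in CLE and 0.99 higher in LU than in HFD. Without the letter R its difference was 0.93 for HFD against ND, 3.18 for CLE against ND and 2.21 for LU against ND. With 1 library left out it was 1.57 to 2.25 for CLE and 1.21 to 1.57 for LU against HFD. The highest Angpt1 transcript was near 0 in 3 libraries and gave no usable ratio. Differences relative to Pecam1 without overlap numbered 22 without the letter R, where ND is 1 library, and 7 to 11 with 1 library left out.

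The endothelial list, an alternative added after seeing the data, gave 19 to 35 calls lower with the HFD, 22 to 37 higher with CLE and 19 to 35 higher with LU with 1 library left out. Mouse numbers did not pair the libraries (r of deviations -0.0989 to 0.189 over 5 pairs), and HFD shares no number with another group, so the block was fitted to ND, CLE and LU only.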
